A study of Caenorhabditis elegans with 12 samples.

Results

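The neuropeptide genes of Caenorhabditis elegans were followed through 3 strains: worms that express a misfolding protein in the intestine and carry a mutated exo-RNAi Argonaute, worms that express the same kind of protein without that mutation, and wild type. The genes were taken by symbol, as every entry of the deposited gene table that starts with flp- (FMRFamide-like peptides) or nlp- (neuropeptide-like proteins), leaving out nlp-27 to nlp-34. This gave 79 of the 46217 gene identifiers, 32 of them flp and 47 nlp. They carry 78 symbols, because flp-17 stands on 2 identifiers with the same values. The rule uses symbols and no measured value, though it was set with earlier results of these data known.

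RNA had been sequenced from whole extracts of day 1 adults grown at 20 °C, from 4 strains with 3 samples each. The rde-1(ne219); cpl-1* strain, called rde-1(ne219) worms below, carried the ne219 allele of rde-1 together with the cpl-1* transgene. The cpl-1* strain carried a cpl-1* transgene without the rde-1 allele, and the wild type carried neither. CPL-1* is a misfolding form of CPL-1, a lysosomal protease of the cathepsin L type, driven by the intestinal nhx-2 promoter, and RDE-1 is the Argonaute protein of the exogenous RNAi pathway. The genotype labels give the transgene the same integration name in both strains that carry it but describe it differently. They give another substituted residue, another fluorescent tag and, only in the rde-1(ne219) strain, a myo-2 promoter marker. The paper describes a YFP tag and a myo-2 promoter marker in cpl-1* worms with and without exo-RNAi mutations. Which label holds for the sequenced worms is not known here. The strain expressing the folded protein, cpl-1WT, was not analysed here. The level of cpl-1, which sums the endogenous gene and whatever part of the transgene was counted, was 9749 FPKM in rde-1(ne219) worms, 2920 FPKM in cpl-1* worms and 1377 FPKM in wild type. That of rde-1 was 19.3 FPKM in rde-1(ne219) worms, 28.0 FPKM in cpl-1* worms and 28.3 FPKM in wild type, which does not test the ne219 label because the lesion lies in the coding sequence.

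Levels are in FPKM, fragments corrected for the length of the transcript and for the total of mapped fragments, and the authors' table gives 1 pooled value per gene and strain. No spread between the 3 samples of a strain could therefore be computed, the depth of each sample is unknown, and no difference below was tested. A difference is given as log2 of (FPKM + 1) in one strain over (FPKM + 1) in the other. A gene is called higher or lower where this difference is at least 1 in size, among genes with a mean of at least 1 FPKM over the 3 strains. That filter kept 14890 genes, 75 of them members, and each of these 75 had at least 1 FPKM in every strain.

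Neuropeptides are cut from larger precursor proteins in the secretory pathway of neurons and of some gland-like, epidermal and intestinal cells, and most flp peptides end in an amidated Arg-Phe. They are packed into dense core vesicles, released by regulated exocytosis, and act mostly on G protein-coupled receptors of other cells. In C. elegans they are known for setting behavioural states such as sleep, arousal, feeding, egg laying and the rhythm of defecation. Because a precursor has to enter the endoplasmic reticulum to be made, its mRNA is translated at that membrane. The genes nlp-27 to nlp-34, which the rule leaves out, are mostly known as antimicrobial peptide genes of the epidermis.

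The members are spread over all 6 chromosomes, with 9 on I, 10 on II, 11 on III, 13 on IV (12 symbols), 10 on V and 26 on X. Their longest coding sequences are short, between 192 and 978 bases with a median of 292.5 bases over the 78 identifiers that have one. The identifier without a coding sequence is the second flp-17 entry, which the Ensembl release 115 annotation of WBcel235 lists as a small piRNA gene inside flp-17. For 16 members the locus also held another symbol with at least 1 FPKM on average, so reads could have been split between overlapping genes there. Among them are neighbours within the families, such as flp-2, flp-3 and flp-28 on chromosome X between positions 10087314 and 10095245, and nlp-45, nlp-22, nlp-23 and nlp-2 on chromosome X between positions 2337600 and 2344766.

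A few nlp genes were far more abundant than all other members. The highest was nlp-24 (chromosome V, 11616376 to 11616828, plus strand, at a locus that also holds glb-15), a glycine-rich peptide gene known as opioid-like and for feeding in starved worms, with 495.1 FPKM in rde-1(ne219) worms, 391.6 FPKM in cpl-1* worms and 292.5 FPKM in wild type. Also abundant were nlp-40 (chromosome I, 11495 to 16837, plus strand), which the intestine secretes to pace the defecation motor program, with 277.7 FPKM in rde-1(ne219) worms, 232.7 FPKM in cpl-1* worms and 184.2 FPKM in wild type, and nlp-36, whose locus also holds dars-1, with 250.8 FPKM in rde-1(ne219) worms, 257.2 FPKM in cpl-1* worms and 218.3 FPKM in wild type. These 3 were the only members at or above 100 FPKM in any strain. They held 36.1% of the summed member FPKM in rde-1(ne219) worms, 46.5% in cpl-1* worms and 40.4% in wild type. Next below them stood nlp-26, a glycine-rich gene like nlp-24, with 61.7 FPKM in rde-1(ne219) worms, 49.7 FPKM in cpl-1* worms and 52.7 FPKM in wild type.

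The flp genes formed an even field at lower levels, with no member above 78.4 FPKM in any strain. The most abundant by mean were flp-28, flp-24, flp-14, flp-1, flp-9 and flp-22, which complete the 10 most abundant members. Of these, flp-28 had 66.7 FPKM in rde-1(ne219) worms, 49.1 FPKM in cpl-1* worms and 44.5 FPKM in wild type. For flp-14 the levels were 62.8 FPKM in rde-1(ne219) worms, 35.7 FPKM in cpl-1* worms and 41.6 FPKM in wild type. The levels of flp-9 were 57.8 FPKM in rde-1(ne219) worms, 28.7 FPKM in cpl-1* worms and 32.1 FPKM in wild type, and those of flp-22 were 48.97 FPKM in rde-1(ne219) worms, 33.4 FPKM in cpl-1* worms and 33.1 FPKM in wild type. All of these had their largest value in rde-1(ne219) worms, and the widest difference between cpl-1* worms and wild type among them was -0.21, for flp-14.

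**Figure D1:**
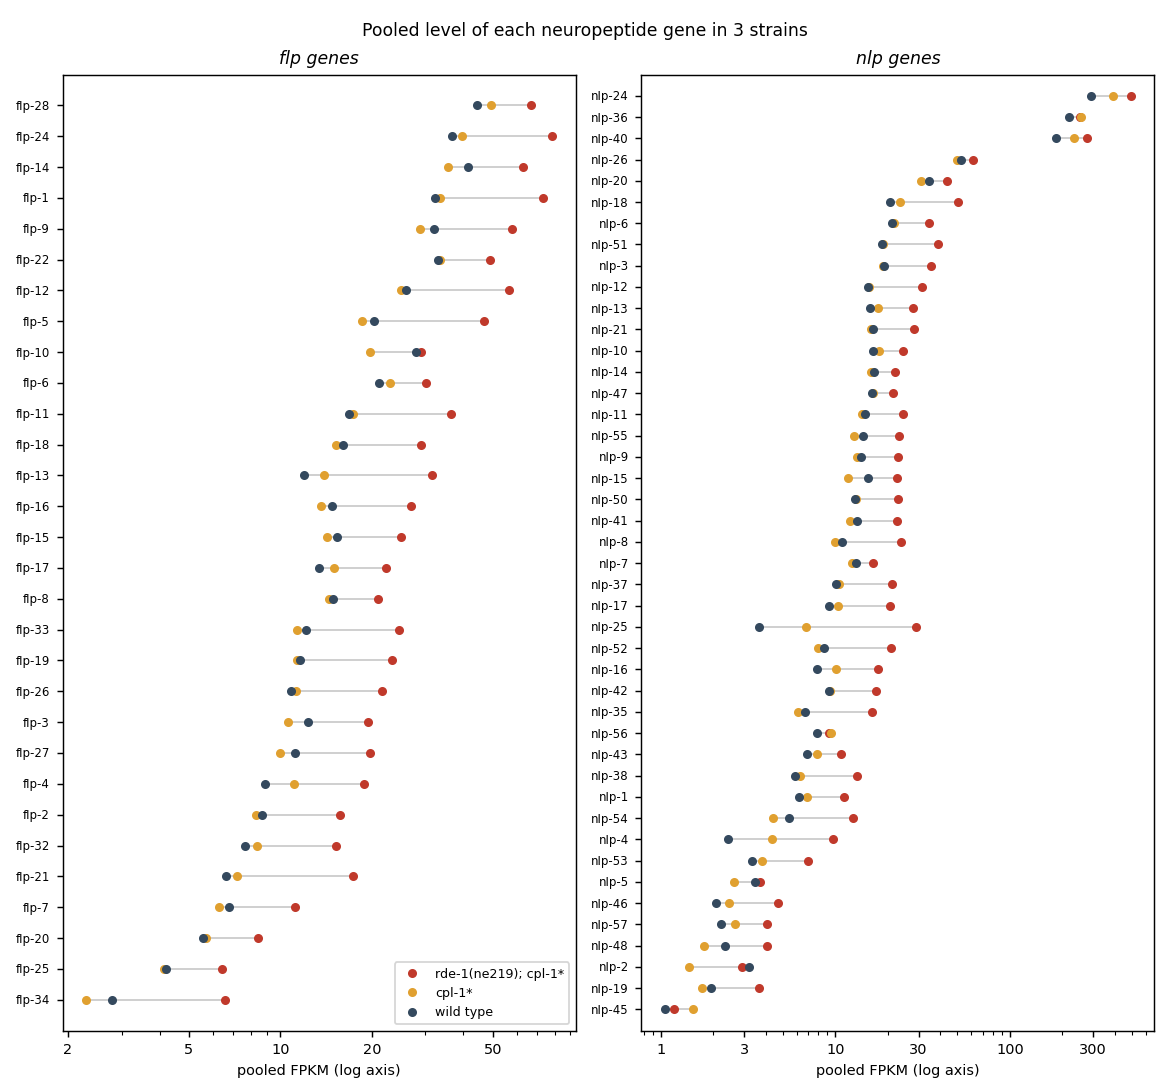
Pooled FPKM (log axis) of each flp gene (left, n = 30 symbols) and nlp gene (right, n = 44 symbols) that passed the filter, with 1 point per strain and a grey line over the range of the 3 strains, ordered by mean level. The cpl-1* and wild type points lie close together for most genes, the rde-1(ne219); cpl-1* points mostly lie to their right, and nlp-24, nlp-36 and nlp-40 stand alone above 100 FPKM.

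Not all members were measurable. The sleep peptide gene nlp-22 was listed at 0 in all 3 strains. The level of flp-23 was 0.10 FPKM in rde-1(ne219) worms and 0.42 FPKM in cpl-1* worms, and it was listed at 0 in wild type, while nlp-23 had 0.55 FPKM in rde-1(ne219) worms, 0.19 FPKM in cpl-1* worms and 0.34 FPKM in wild type. For nlp-39 a level of 1.67 FPKM was listed in wild type and 0 in both other strains. These 4 did not pass the filter and enter none of the counts below, and no fold is given against a strain listed at 0.

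The first comparison sets cpl-1* worms, which carry the transgene, against wild type. Without cpl-1WT, the misfolding cannot be told apart from carrying a transgene. Between cpl-1* worms and wild type the levels of the neuropeptide genes lay close together. Of the 75 members, 0 were higher and 0 were lower, where 9.46% of all genes that passed the filter were higher and 1.2% were lower. The median difference was 0.01, against -0.03 over all genes, with quartiles of -0.10 and 0.14, and 39 of the 75 lay above 0, against 46.4% of all genes. A difference within 0.5 in size was found for 72 members (96.0%), against 75.6% of all genes. Across the 75 members the levels on the log2(FPKM + 1) scale in both strains had a Pearson r of 0.99 and a Spearman rho of 0.99, given as a description across genes that share 1 pooled value per strain.

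The 3 members outside that band were nlp-25, nlp-4 and nlp-2, named here after their values were seen. The level of nlp-25 was 6.76 FPKM in cpl-1* worms and 3.65 FPKM in wild type, a difference of 0.74. That of nlp-4 was 4.31 FPKM in cpl-1* worms and 2.44 FPKM in wild type, a difference of 0.63, and that of nlp-2 was 1.45 FPKM in cpl-1* worms and 3.19 FPKM in wild type, a difference of -0.77. All were below 10 FPKM in both strains, and none reached the limit of 1. The next in size was flp-10, an inhibitor of egg laying, with 19.7 FPKM in cpl-1* worms and 28.0 FPKM in wild type and a difference of -0.49. The abundant nlp-24 and nlp-40 had differences of 0.42 and 0.34. Summed over symbols, the flp genes came to 518 FPKM in cpl-1* worms and 528 FPKM in wild type, a ratio of 0.98, and the nlp genes to 1362 FPKM in cpl-1* worms and 1179 FPKM in wild type, a ratio of 1.16. Without the 3 members of 100 FPKM or more, the sum over both families was 999 FPKM in cpl-1* worms and 1012 FPKM in wild type.

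The second comparison sets rde-1(ne219) worms against cpl-1* worms. Besides the rde-1 allele, these strains differ in how the labels describe the transgene, while the paper describes both as cpl-1* worms. The level of cpl-1 was 9749 FPKM in rde-1(ne219) worms and 2920 FPKM in cpl-1* worms. The paper reports cpl-1* mRNA to be more stable with the rde-1(ne219) allele, and the part of this in the level was not tested. What goes with the allele cannot be told apart from what goes with the transgene. Here nearly every member had a larger FPKM in rde-1(ne219) worms than in cpl-1* worms, 73 of the 79, and most by a similar and modest amount. The difference was above 0 for 72 of the 75 members (96.0%), against 52.8% of all genes. Its median was 0.78 with quartiles of 0.53 and 0.97, where that of all genes was 0.08 with quartiles of -0.59 and 0.82. The members past the limit were 16 higher (21.3%) and 0 lower, against 19.3% and 11.7% of all genes, so the share called higher was near the background. Pan-neuronal markers had a median difference of 0.60 in the same comparison, with 11 of 14 above 0. They ran between -0.50 for unc-119 and 1.02 for rab-3. Oocyte and germ line genes had a median of -2.01, and the part of both lists in the result was not tested. In these whole-worm extracts fewer or more neurons, less or more RNA per neuron and a changed share of other tissues cannot be told apart. All strains were taken as day 1 adults, and whether their stages matched was not tested. Relative to the pan-neuronal median, the median of the 75 members was 0.18 with 1 member, nlp-25, higher, while the split of all genes became 7.08% higher and 32% lower, against 19.3% and 11.7% as deposited.

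The differences of the members lay in a narrow band. Their SD over genes was 0.35, against 1.05 over all genes, and 69 of the 75 (92.0%) lay between 0.3 and 1.3, against 31.1% of all genes. Such a band was not particular to the members. The share between 0.3 and 1.3 was 88.9% of 9 processing genes, 87.5% of 8 intestine markers and 78.6% of 14 pan-neuronal markers. It was smaller for receptors (62.5%), dense core vesicle genes (60.0%) and muscle markers (44.4%). The limit of 1 cut through the cluster of members, with 15 members between 0.9 and 1.1, so the count of 16 depends on where the limit is set. At a limit of 0.5, 58 members were higher and 36.4% of all genes were. The pattern of a difference within 0.5 between cpl-1* worms and wild type and above 0.5 between the rde-1(ne219) strain and cpl-1* worms was shown by 55 members (73.3%) and by 2903 of all genes (19.5%). The difference had little relation to the level, with a Pearson r of -0.11 and a Spearman rho of -0.06 across the 75 members.

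**Figure D2:**
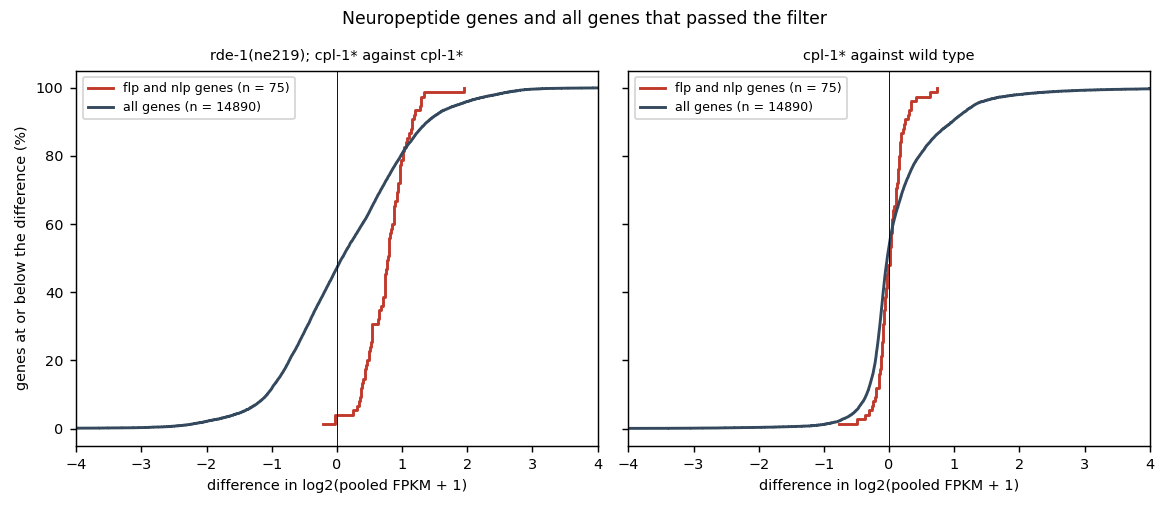
Cumulative share (%) of the 75 flp and nlp genes (red) and of all 14890 genes that passed the filter (dark) at or below each difference in log2(pooled FPKM + 1), for rde-1(ne219); cpl-1* worms set against cpl-1* worms (left) and cpl-1* against wild type (right). On the left the red curve climbs steeply around its median of 0.78 while that of all genes is broad around 0.08, and on the right both cross 50% near 0.

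The flp genes all lay on one side of 0. All 31 flp identifiers that passed the filter had a difference above 0, between 0.37 for flp-6 and 1.28 for flp-5, with a median of 0.85. Summed over symbols, the flp genes came to 950 FPKM in rde-1(ne219) worms and 518 FPKM in cpl-1* worms, a ratio of 1.83. The 8 that rose past the limit (25.8%, against 19.3% of all genes) were flp-5, flp-34, flp-21, flp-12, flp-13, flp-1, flp-33 and flp-11.

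Highest of the family in this comparison was flp-5 (chromosome X, 8528250 to 8531076, plus strand), with 46.7 FPKM in rde-1(ne219) worms, 18.6 FPKM in cpl-1* worms and 20.4 FPKM in wild type, a difference of 1.28 between the rde-1(ne219) strain and cpl-1* worms. For flp-12 the levels were 56.6 FPKM in rde-1(ne219) worms, 24.9 FPKM in cpl-1* worms and 25.8 FPKM in wild type, with a difference of 1.15. For flp-33 they were 24.6 FPKM in rde-1(ne219) worms, 11.3 FPKM in cpl-1* worms and 12.2 FPKM in wild type, with a difference of 1.06. In these 3 genes the cpl-1* level was just under that of wild type, and the rde-1(ne219) level alone stood apart.

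The nlp family was more varied. Of its 44 members that passed the filter, 41 had a difference above 0, against 52.8% of all genes, with a median of 0.74. The 8 that were higher made up 18.2% of them, against 19.3% of all genes, so this share was near the background. Summed, the nlp genes came to 1863 FPKM in rde-1(ne219) worms and 1362 FPKM in cpl-1* worms, a ratio of 1.37. Without the 3 members of 100 FPKM or more, the sum over both families was 1790 FPKM in rde-1(ne219) worms and 999 FPKM in cpl-1* worms, a ratio of 1.79. The 3 members of 100 FPKM or more had a median of 0.25 and the other 72 members a median of 0.80.

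The widest difference of any member was that of nlp-25 (chromosome V, 19606180 to 19608419, plus strand), a glycine-rich peptide gene close to nlp-26 on the same strand, with 29.0 FPKM in rde-1(ne219) worms, 6.76 FPKM in cpl-1* worms and 3.65 FPKM in wild type. It rose by 1.95 between the rde-1(ne219) strain and cpl-1* worms, a ratio of 4.29 in FPKM. Its relatives nlp-24 and nlp-26 had differences of 0.34 and 0.31, so the 3 glycine-rich genes lay between 0.31 and 1.95.

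The next in size was nlp-54 (chromosome IV, 17368592 to 17370618, plus strand), which the reference annotation calls trh-1, the precursor of a thyrotropin-releasing hormone-like peptide known for body growth. Its level was 12.6 FPKM in rde-1(ne219) worms, 4.40 FPKM in cpl-1* worms and 5.43 FPKM in wild type, with a difference of 1.33. For nlp-52 the levels were 20.9 FPKM in rde-1(ne219) worms, 7.97 FPKM in cpl-1* worms and 8.57 FPKM in wild type, with a difference of 1.29. In both genes the cpl-1* level was the lowest of the 3 strains.

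Also higher were nlp-35 with a difference of 1.29, whose locus is shared with C33A12.19, nlp-18 with 1.08, nlp-4 with 1.02 and nlp-51 with 1.01. The peptides of nlp-18 act on cholecystokinin-type receptors, and its level was 50.5 FPKM in rde-1(ne219) worms, 23.4 FPKM in cpl-1* worms and 20.5 FPKM in wild type. For nlp-51 the levels were 38.7 FPKM in rde-1(ne219) worms, 18.8 FPKM in cpl-1* worms and 18.6 FPKM in wild type. That of nlp-4 was larger at each step, with 9.76 FPKM in rde-1(ne219) worms, 4.31 FPKM in cpl-1* worms and 2.44 FPKM in wild type.

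At the other end, 3 nlp genes had differences below 0. The difference was -0.21 for nlp-45, with 1.19 FPKM in rde-1(ne219) worms and 1.53 FPKM in cpl-1* worms. It was -0.04 for nlp-36 and -0.03 for nlp-56, which had 9.23 FPKM in rde-1(ne219) worms and 9.47 FPKM in cpl-1* worms. All 3 lie at loci that hold another expressed gene, dars-1 in the case of nlp-36. The median over the 53 members that passed the filter and whose locus holds no other identifier was 0.84, and all 53 were above 0.

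**Figure D3:**
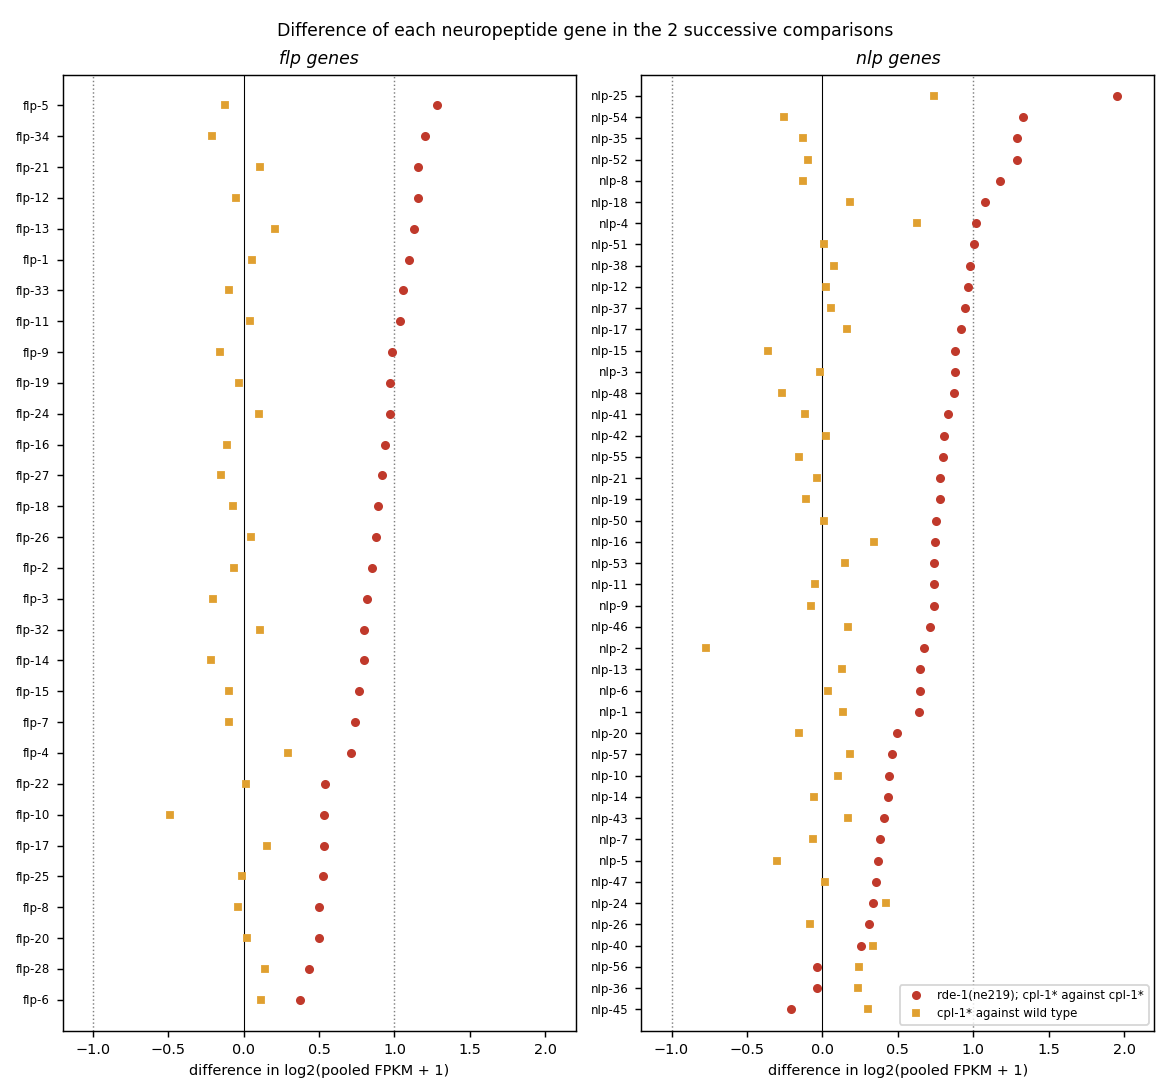
Difference in log2(pooled FPKM + 1) of each flp gene (left, n = 30 symbols) and nlp gene (right, n = 44 symbols) for rde-1(ne219); cpl-1* worms set against cpl-1* worms (red circles) and cpl-1* against wild type (orange squares), ordered by the circles. Dotted lines mark -1 and 1. The squares lie around 0 and the circles mostly between 0.3 and 1.3, with nlp-25 at 1.95.

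Counts and medians of the lists that follow are for the rde-1(ne219) strain against cpl-1* worms unless another comparison is named, where 19.3% of all genes were higher, 11.7% were lower and the median was 0.08. Grouped by what the peptides are known to do, the sleep peptides had the highest median of the role lists, with 3 of 5 measured genes higher. The ALA neuron releases the products of flp-13, flp-24, nlp-8 and nlp-14 in stress-induced sleep, and the RIS neuron those of flp-11. The levels of flp-13 (chromosome IV, 7696932 to 7698420, minus strand) were 31.6 FPKM in rde-1(ne219) worms, 13.9 FPKM in cpl-1* worms and 11.9 FPKM in wild type. Those of nlp-8 (chromosome I, 7800455 to 7801822, minus strand) were 23.7 FPKM in rde-1(ne219) worms, 9.91 FPKM in cpl-1* worms and 10.9 FPKM in wild type, and those of flp-11 (chromosome X, 4677334 to 4678129, minus strand) were 36.5 FPKM in rde-1(ne219) worms, 17.3 FPKM in cpl-1* worms and 16.8 FPKM in wild type. These 3 rose past the limit, with differences of 1.13, 1.18 and 1.04 between the rde-1(ne219) strain and cpl-1* worms. The levels of flp-24 were 78.4 FPKM in rde-1(ne219) worms, 39.6 FPKM in cpl-1* worms and 36.8 FPKM in wild type, a difference of 0.97, and nlp-14 had a difference of 0.44. The median of the 5 measured sleep genes was 1.04, against 0.78 over all members, with no test of that contrast.

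Among peptides of locomotion and arousal, 1 of 5 was higher and all 5 were above 0, with a median of 0.89. It was flp-1 (chromosome IV, 9144705 to 9146128, plus strand), whose peptides shape the body wave, with 73.0 FPKM in rde-1(ne219) worms, 33.6 FPKM in cpl-1* worms and 32.2 FPKM in wild type. The cholecystokinin-like gene nlp-12 had 31.4 FPKM in rde-1(ne219) worms, 15.6 FPKM in cpl-1* worms and 15.4 FPKM in wild type and a difference of 0.96. The other genes of that list were flp-18, a ligand of NPR-1 and its relatives, with a difference of 0.89, the arousal gene flp-2 with 0.85, and flp-20, known from touch neurons, with 0.50.

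For the egg-laying peptides 0 of 4 symbols passed the limit, and the median was 0.53. The level of nlp-3, which the egg-laying neurons HSN use to excite the vulval circuit, was 35.3 FPKM in rde-1(ne219) worms, 18.8 FPKM in cpl-1* worms and 18.99 FPKM in wild type, a difference of 0.88. The inhibitory genes flp-10 and flp-17 both had a difference of 0.53, and nlp-7, also inhibitory, one of 0.38. For flp-10, with 28.9 FPKM in rde-1(ne219) worms, 19.7 FPKM in cpl-1* worms and 28.0 FPKM in wild type, the rde-1(ne219) and wild type levels were nearly the same.

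Of the genes tied to feeding, foraging and defecation, 2 of 4 were higher. The NPR-1 ligand gene flp-21, known from social feeding, had 17.3 FPKM in rde-1(ne219) worms, 7.20 FPKM in cpl-1* worms and 6.62 FPKM in wild type, a difference of 1.16. The neuropeptide Y-like gene flp-34 had 6.58 FPKM in rde-1(ne219) worms, 2.29 FPKM in cpl-1* worms and 2.80 FPKM in wild type and a difference of 1.21. The abundant nlp-24 and nlp-40 of the same list had differences of 0.34 and 0.25. The RPamide and orcokinin-like genes nlp-2, nlp-14, nlp-15 and nlp-46 all had differences above 0 and none past the limit, with a median of 0.69.

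Peptide genes outside the rule had differences in the same range. The reference annotation gives flp or nlp symbols to 21 further identifiers that the table lists under other names, and these were added after the values of the members had been seen. Of the 20 that passed the filter, 0 were past the limit between cpl-1* worms and wild type, and 19 were above 0 and 5 higher between the rde-1(ne219) strain and cpl-1* worms, with a median of 0.75. The highest was nlp-67, with 17.99 FPKM in rde-1(ne219) worms, 3.89 FPKM in cpl-1* worms and 1.72 FPKM in wild type. The arousal gene nlp-49 had 103.9 FPKM in rde-1(ne219) worms, 52.7 FPKM in cpl-1* worms and 55.4 FPKM in wild type. Precursors with symbols of their own had differences of 1.19 for capa-1, 0.96 for snet-1, 0.94 for pdf-1 (pigment dispersing factor) and 0.69 for ntc-1 (nematocin, related to oxytocin and vasopressin).

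The third comparison, between rde-1(ne219) worms and wild type, shares both strains with the others and is the sum of their differences, so it is no independent measure. In it 19 of the 75 members were higher and 0 lower, against 25.9% and 16.2% of all genes, and 74 were above 0, against 51.4% of all genes. The median was 0.77, against 0.04 over all genes, with quartiles of 0.58 and 1.00. The widest was again nlp-25 with 2.69, followed by nlp-4 with 1.64, flp-13 with 1.34, flp-21 and nlp-18 with 1.26 each and nlp-52 with 1.19. Only nlp-2 lay below 0, at -0.10. The median member level was 22.2 FPKM in rde-1(ne219) worms, 11.7 FPKM in cpl-1* worms and 12.3 FPKM in wild type, and 10 FPKM was reached by 62 members in rde-1(ne219) worms, 48 in cpl-1* worms and 47 in wild type.

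Members on X and on the autosomes had similar medians. In rde-1(ne219) against cpl-1* worms the 24 measured members on X had a median of 0.76 and the 51 on the autosomes one of 0.80. Over all genes the medians were 0.42 on X and 0.00 on the autosomes, so the autosomal members stood further from their chromosomes' other genes.

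Genes that mature peptides also had larger values in rde-1(ne219) worms than in cpl-1* worms. Of 9 processing genes all had a difference above 0 and 0 passed the limit, with a median of 0.69. The level of egl-3, the proprotein convertase that cuts most precursors, was 51.3 FPKM in rde-1(ne219) worms, 26.5 FPKM in cpl-1* worms and 27.4 FPKM in wild type. That of sbt-1, the chaperone of EGL-3, was 102.5 FPKM in rde-1(ne219) worms, 53.0 FPKM in cpl-1* worms and 56.8 FPKM in wild type, and that of the carboxypeptidase gene egl-21 was 81.0 FPKM in rde-1(ne219) worms, 42.7 FPKM in cpl-1* worms and 40.1 FPKM in wild type. Differences between the rde-1(ne219) strain and cpl-1* worms were 0.93 for egl-3, 0.94 for sbt-1 and 0.91 for egl-21, and 0.69 for the amidation enzyme gene pgal-1. The widely expressed convertase gene bli-4, known for its part in the cuticle, had a difference of 0.07.

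Genes of dense core vesicles had a median of 0.47, with 9 of 10 above 0 and 0 past the limit. Their spread ran between -0.42 for eipr-1 and 0.95 for ida-1, a vesicle membrane protein, whose levels were 30.95 FPKM in rde-1(ne219) worms, 15.6 FPKM in cpl-1* worms and 16.0 FPKM in wild type. The release factor unc-31 (CAPS) had a difference of 0.41 and the Rab2 gene unc-108, which is not confined to neurons, one of 0.16.

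Receptors were at the edge of what was measured, and only 40 of 87 receptor identifiers passed the filter. Of these, 33 had a difference above 0 and 0 were past the limit in either direction, with a median of 0.45. The largest differences were those of npr-6 at 0.84 and npr-16 at 0.79. On the other side stood egl-6, the receptor through which flp-10 and flp-17 slow egg laying, with 1.55 FPKM in rde-1(ne219) worms, 3.81 FPKM in cpl-1* worms and 6.14 FPKM in wild type and a difference of -0.92. Neprilysin-like peptidases, a family that degrades peptides outside cells, had 10 of 20 measured genes higher and 0 lower, against 19.3% and 11.7% of all genes, with a median of 1.01, against 0.08 over all genes. Among them, nep-1 had 36.7 FPKM in rde-1(ne219) worms, 16.0 FPKM in cpl-1* worms and 17.3 FPKM in wild type. For nep-22 the levels were 77.3 FPKM in rde-1(ne219) worms, 26.7 FPKM in cpl-1* worms and 20.9 FPKM in wild type. A difference above 0 was found for 18 of the 20. The most abundant, nep-17, lay below 0, with 48.4 FPKM in rde-1(ne219) worms and 84.4 FPKM in cpl-1* worms, a difference of -0.79. So did nep-14, with a difference of -0.82.

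**Figure D4:**
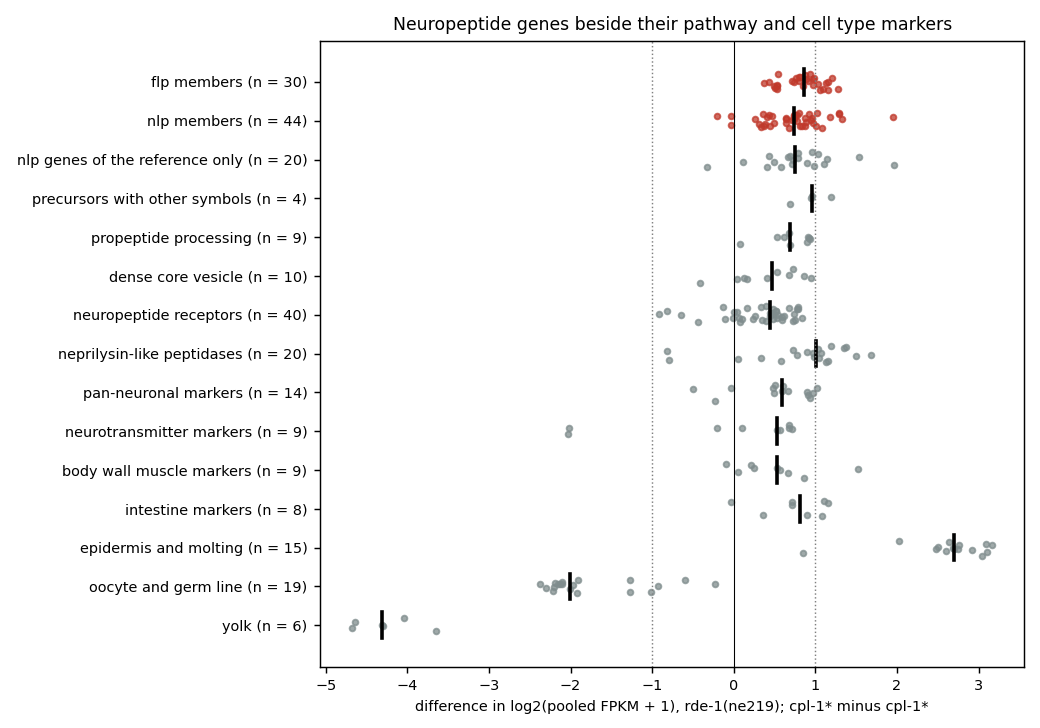
Difference in log2(pooled FPKM + 1) of rde-1(ne219); cpl-1* worms over cpl-1* worms for each measured gene (points, spread vertically at random) of the neuropeptide families (red, n = 30 flp and n = 44 nlp symbols), of their pathway and of cell type marker lists (grey), with the median as a black bar. Dotted lines mark -1 and 1. The peptide, processing, vesicle, receptor and pan-neuronal genes lie mostly between 0 and 1, while the yolk genes and most oocyte and germ line genes lie below -1 and most molting genes above 2.

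Other genes of neurons mostly had larger values in rde-1(ne219) worms too. Of 14 pan-neuronal markers, 11 had a difference above 0 and 1, rab-3, was higher, with a median of 0.60 and a range of -0.50 (unc-119) to 1.02 (rab-3). Their summed level was 399 FPKM in rde-1(ne219) worms, 332 FPKM in cpl-1* worms and 344 FPKM in wild type, of which snb-1 made up 187.1 FPKM in rde-1(ne219) worms, 191.6 FPKM in cpl-1* worms and 208.4 FPKM in wild type.

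Marker genes of other tissues also differed in level between the strains, and a change in the share of a tissue cannot be told apart from one in its expression. In rde-1(ne219) against cpl-1* worms, 16 of 19 oocyte and germ line genes were lower with a median of -2.01 and summed levels of 2171 FPKM in rde-1(ne219) worms, 7736 FPKM in cpl-1* worms and 8363 FPKM in wild type. All 6 yolk genes were lower, with a median of -4.31, and 14 of 15 epidermal and molting genes were higher, with a median of 2.70. Muscle markers had a median of 0.54 with 1 of 9 higher, and intestine markers one of 0.81 with 3 of 8 higher. The sperm genes (msp) had a median of 0.73, with 31 of 33 above 0, 5 higher and 78.8% between 0.3 and 1.3, beside a median of 0.78, 96.0% above 0 and 92.0% in that range for the 75 neuropeptide genes. Of 9 measured neurotransmitter marker genes, 6 had a difference above 0, 0 were higher and 2 were lower, with a median of 0.53. Those 2 were the octopamine and tyramine enzyme genes tbh-1 and tdc-1, expressed in a few neurons and in the gonadal sheath. Their differences were -2.03 and -2.01. FPKM are relative to the fragments of the whole library, and the part of these markers in the neuropeptide values was not tested.

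Between cpl-1* worms and wild type the same lists gave other values. Of the germ line genes 0 and of the yolk genes 0 passed the limit, with medians of -0.12 and 0.03, while 10 of 15 molting genes and 29 of 33 sperm genes were higher, against 9.46% of all genes, with medians of 1.65 and 1.13. The pan-neuronal markers had a median of 0.12 there and the neuropeptide genes one of 0.01.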

How the data were processed

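Total RNA of whole worms was sequenced in 12 samples. Per the labels and the methods, the authors mapped reads with HISAT2 2.1.0 (WBcel235, Ensembl release 91), assembled transcripts with StringTie 1.3.4d, and computed with Cuffdiff 2.2.1 the deposited FPKM, 1 value per gene pooled over the 3 samples of a strain. The deposited table also holds the authors' log2 ratios, p-values and q-values, which were not used. The pooled values hold no spread between samples, so no test was made from them, and the depth per sample is unknown.

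Of the table's 46218 rows per comparison, the first row of each of 46217 identifiers was used. Differences were computed on the log2(FPKM + 1) scale with a filter at a mean of 1 FPKM, in Python 3.11.15 with pandas 2.3.3 and numpy 2.4.6, and the script was tested on simulated data. Lists are described by counts and medians, to be read against the shares and medians of all genes in the same comparison. Positions came from release 115 of the Ensembl annotation (WBcel235), and all 79 members overlapped their annotated gene.

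The members and lists (peptide roles, processing, vesicles, receptors, peptidases, cell type markers) were chosen with earlier results of these data known. By plan, values were given for up to 10 members with the widest differences past the limit in each direction, the 10 most abundant members, and the genes of these lists. Values are also given for some members outside that plan, such as flp-33, nlp-51, nlp-45 and nlp-56. The symbols nlp-49, nmur-4, pdf-2, lury-1, trh-1, mip-1 and opt-2 were not matched in the table. Not all of these genes are absent from it. By the reference annotation pdf-2 is the member nlp-37 and trh-1 the member nlp-54, and nlp-49 is listed under another name. Alternatives were a pseudocount of 0.1 FPKM, no filter or one at 5 FPKM, limits of 0.5 and 2, differences relative to the median of all genes or of pan-neuronal markers, and each symbol counted once. Leaving out members at loci with another expressed gene, or those of 100 FPKM or more, was added after the data had been seen. No nucleotide or protein sequence was used here.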

Additional observations from a re-analysis of the deposited data

How the results depend on the processing

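No paired analysis was possible because each strain has 1 pooled value per gene, which carries no replicate number, and for the same reason no sample could be left out. The main counts were 16 members higher between rde-1(ne219) and cpl-1* worms, 19 between rde-1(ne219) worms and wild type and 0 between cpl-1* worms and wild type. Of all genes 19.3%, 25.9% and 9.46% were higher in that order. A limit of 0.5 gave 58, 62 and 2 higher in the same order of comparisons, against 36.4%, 38.3% and 19.1% of all genes. It put 1 member (nlp-2) lower between cpl-1* worms and wild type, against 5.39% of all genes. A limit of 2 gave 0, 1 and 0 higher, against 4.04%, 12.3% and 2% of all genes. Relative to the pan-neuronal median, the medians of the members were 0.18, 0.098 and -0.11. With that setting 1, 1 and 0 members were higher, against 7.08%, 16.1% and 7.59% of all genes. A pseudocount of 0.1 FPKM put 1 member (nlp-2) lower between cpl-1* worms and wild type, against 1.97% of all genes. Dropping the filter put 1 lower there (nlp-39, listed at 0 in both transgenic strains), against 0.461% of all genes. It also put 1 lower between rde-1(ne219) worms and wild type, against 5.46% of all genes. Between rde-1(ne219) and cpl-1* worms the count of 16 was 22 with the pseudocount of 0.1 FPKM (24.2% of all genes), 15 with the filter at 5 FPKM (14.9% of all genes), 11 relative to the median of all genes (17.1% of all genes), and 15 without members at shared loci, all within 1.5 times the main count. Relative to the median of all genes the share of the 75 members called higher was thus below that of all genes, where it was above it as deposited. No called member changed sign with the pseudocount of 0.1 FPKM or relative to either median. A called difference is at least 1 in size, so these settings could not reverse it. Relative to the pan-neuronal median, 55 of 74 symbols kept their sign between rde-1(ne219) and cpl-1* worms. The same held for 45 between rde-1(ne219) worms and wild type and for 56 between cpl-1* worms and wild type. The unknown depth limits most the members of a few FPKM, such as nlp-2 and nlp-45.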
